A study of Mus musculus with 13 samples.

Results

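Catenins are the proteins through which cadherins at the cell surface reach the actin cytoskeleton and the nucleus, and 7 genes of the family and its partners are described here in mouse melanoma lines with and without E-cadherin. They were Ctnnb1 (β-catenin), Jup (plakoglobin or γ-catenin), Ctnna1 and Ctnna2 (αE- and αN-catenin), Ctnnd1 and Ctnnd2 (p120- and δ-catenin) and Ctnnbip1 (ICAT), 7 of the 21951 protein-coding genes of the GENCODE M21 annotation. The genes were chosen by name. For each gene, the H3K27ac peaks of 9 cell lines that overlapped its GRCm38 (mm10) body plus 5 kb on each side were collected, which gave 164 of the 256200 peaks deposited. The promoter of a gene was called in a line where a peak lay within 1 kb of the start of any of its transcripts.

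The lines came from melanomas of transgenic mice. All lines carried NRAS Q61K expressed from the tyrosinase promoter, which is active in the melanocyte lineage, with 1 inactivated Cdkn2a allele and both Cdh1 alleles floxed. The ∆Ecad lines also carried Tyr::CreA, which deletes Cdh1, the E-cadherin gene, in that lineage. There were 2 Ecad male lines (Ma_1007 and Ma_1181), 2 Ecad female lines (Ma_1014 and Ma_1039), 2 ∆Ecad male lines (Ma_1062 and Ma_1456) and 3 ∆Ecad female lines (Ma_1057, Ma_1064 and Ma_1069). Each list of peaks came from 1 line, so the spread between lines of a group includes differences between tumours, and no line was measured again. No treatment was given.

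In the canonical Wnt pathway, cytoplasmic β-catenin is phosphorylated by a destruction complex and degraded; when it escapes, it enters the nucleus and activates genes together with TCF/LEF factors. At adherens junctions, β-catenin or its close relative plakoglobin binds the cadherin tail and recruits α-catenin, which contacts actin, while p120-catenin binds the cadherin near the membrane and limits its turnover. ICAT occupies β-catenin and keeps it from TCF factors. Acetylation of lysine 27 of histone H3 (H3K27ac), mapped here by ChIP–seq, marks active promoters and enhancers.

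The lists differed in length. They held 20741 to 41663 peaks and covered 29.5 to 67.2 Mb, the largest being that of the Ecad male line Ma_1007. The 3 ∆Ecad female lists called 25.3% to 33.3% of all protein-coding promoters, below the 38.4% to 48.6% of the other 6 lists. The files give no read counts, so the depth behind each list is unknown, and the absence of a peak means that none passed the authors' threshold. All 6 melanocyte markers (Sox10, Mitf, Dct, Tyr, Mlana and Pmel) had a called promoter in the 9 lists, whereas none of the 4 keratinocyte, 3 endothelial and 3 leukocyte markers did. Of the fibroblast markers, Pdgfra alone was called, in line Ma_1007 only. Over Cdh1 no list had a promoter call, and the covered length was 1.66 to 3.16 kb in ∆Ecad females and 4.45 to 8.79 kb in the other lines, ∆Ecad males included, so the peaks over Cdh1 did not separate the genotypes.

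The 7 genes fell into 3 classes by their promoters. Ctnnb1, Ctnna1 and Ctnnd1 were called in all 9 lists, Jup in 5 lists, and Ctnna2, Ctnnd2 and Ctnnbip1 in none. With at least 0.5 of the window required to be covered, Ctnnb1 was called in 0 of 3 ∆Ecad females and 5 of the other 6 lines (Fisher's exact p = 0.0476). That setting takes any transcript start, and some Ctnnb1 transcripts start near the 3′ end of the gene. Line Ma_1456 had a peak at such a start and line Ma_1062 had none. Which start gave each call was not recorded, so the difference may not lie at the main start. The share of all genes passing at that setting was not computed. By the main rule and the same test, 14.0% of the 6985 promoters called in some lists passed for ∆Ecad females. Over all protein-coding genes, 21.1% were called in 9 lists and 47.1% in none. The sequences of the starts that set these classes apart are shown first, as the 250 bases before the start given by RefSeq (GRCm38.p6), 5′ to 3′ on the strand of the gene. Capitals mark matches on either strand to any of 4 motifs, CTTTGAA or CTTTGAT (TCF/LEF), TGANTCA (AP-1), CATGTG (an M-box core bound by MITF) and ACAAAG (SOX). RefSeq promoter sequences were found for 6 of the 7 genes, all but Ctnna1. The first is the Ctnnb1 start at chr9:120933150-120933399 (+), and the next is the Jup start at chr11:100397791-100398040 (−). Then come both Ctnnd1 starts, the upstream one at chr2:84658978-84659227 (−) and the downstream one at chr2:84650741-84650990 (−). The last is the Ctnnbip1 start at chr4:149517991-149518240 (+).
Ctnnb1: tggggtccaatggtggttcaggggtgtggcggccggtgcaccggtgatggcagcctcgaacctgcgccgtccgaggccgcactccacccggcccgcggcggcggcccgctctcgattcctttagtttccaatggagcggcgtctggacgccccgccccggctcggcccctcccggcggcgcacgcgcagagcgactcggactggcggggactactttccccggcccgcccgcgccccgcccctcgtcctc
Jup: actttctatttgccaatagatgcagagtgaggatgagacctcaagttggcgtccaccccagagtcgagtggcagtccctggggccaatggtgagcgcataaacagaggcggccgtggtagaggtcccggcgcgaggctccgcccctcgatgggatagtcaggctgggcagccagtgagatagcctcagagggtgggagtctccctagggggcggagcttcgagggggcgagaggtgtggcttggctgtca
Ctnnd1 upstream: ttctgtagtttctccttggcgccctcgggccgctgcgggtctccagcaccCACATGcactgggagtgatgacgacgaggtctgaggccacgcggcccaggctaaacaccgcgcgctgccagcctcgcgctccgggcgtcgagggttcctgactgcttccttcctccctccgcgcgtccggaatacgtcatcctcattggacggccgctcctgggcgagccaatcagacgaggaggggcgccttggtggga
Ctnnd1 downstream: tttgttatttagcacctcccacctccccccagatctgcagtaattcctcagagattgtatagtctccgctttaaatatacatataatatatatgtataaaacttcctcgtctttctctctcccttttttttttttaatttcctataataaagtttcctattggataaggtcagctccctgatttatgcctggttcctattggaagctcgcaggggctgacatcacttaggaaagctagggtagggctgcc
Ctnnbip1: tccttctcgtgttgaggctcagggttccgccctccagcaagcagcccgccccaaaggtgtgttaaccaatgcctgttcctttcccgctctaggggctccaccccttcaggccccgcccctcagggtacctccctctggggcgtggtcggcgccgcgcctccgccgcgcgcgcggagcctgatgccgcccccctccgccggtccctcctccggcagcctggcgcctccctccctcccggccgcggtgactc

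Base composition did not divide called from uncalled starts. The 300-base windows around the uncalled starts of Ctnna2, Ctnnd2 and Ctnnbip1 (the upstream of its 2 starts) held 75.3%, 64.7% and 73.3% G and C, and their observed over expected CpG was 0.895, 0.915 and 0.769. The Ctnnb1 window, called in 9 lists, was as rich, with 75.3% G and C and a CpG ratio of 1.08. Ctnnd1 went the other way. Its downstream start, called in 9 lists, held 42.7% G and C with a CpG ratio of 0.225, whereas its CpG-rich upstream start (67.7% and 0.874) had no peak within 1 kb in any list. Only 16.5% of the 32851 windows of the table were as low in G and C as the downstream Ctnnd1 start. In the 250 bases before the 9 starts of these genes there was no match to the TCF/LEF, AP-1 or SOX motif, which occurred in 7.48%, 6.75% and 16.5% of all windows, and 1 start held CATGTG (12.3% of all windows). The upstream Ctnnd1 start lies outside the GENCODE gene body and its flank.

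Ctnnb1 encodes β-catenin and lies at chr9:120929216-120960507 (+). Distances, for this and the other genes, are from the start of the first-numbered GENCODE transcript. In all 9 lists the main peak lay just downstream of it, with a summit 1.38 to 1.56 kb into the gene, in intron 1. In 7 lists that peak began 0.48 to 0.67 kb after the start, leaving the CpG-rich start itself uncovered, and in line Ma_1181 it began at 0.08 kb. A separate upstream peak was called in lines Ma_1014, Ma_1039 and Ma_1064, and in line Ma_1007 a single peak of 6388 bp ran through both. The region also lay within 1 kb of the start of 4930593C16Rik, a neighbouring gene. The 300 bases around the summit in line Ma_1007 (chr9:120934634-120934933, +, no annotated exon) are shown because every line had its summit near them. They held 1 match each to the TCF/LEF, CATGTG and SOX motifs, which occurred in 11.4%, 18.4% and 25.4% of all summit windows of that list.
Ctnnb1 intron 1: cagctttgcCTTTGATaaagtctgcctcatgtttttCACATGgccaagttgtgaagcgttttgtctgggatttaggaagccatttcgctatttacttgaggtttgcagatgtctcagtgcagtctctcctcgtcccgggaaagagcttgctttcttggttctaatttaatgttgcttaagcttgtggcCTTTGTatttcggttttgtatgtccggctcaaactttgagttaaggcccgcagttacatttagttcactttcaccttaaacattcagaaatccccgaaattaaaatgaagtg

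The Ctnnb1 window was covered over 10.0 kb and 3.52 kb in the Ecad males and 5.65 kb and 7.18 kb in the Ecad females. In ∆Ecad lines it was covered over 3.13 kb and 6.65 kb in the males and 1.83, 2.94 and 2.86 kb in the females. All 3 ∆Ecad female values were below the other 6. The means were 2.54 ± 0.621 kb (s.d., n = 3) and 6.03 ± 2.56 kb (s.d., n = 6), a difference of −3.49 kb (exact permutation test, two-sided p = 0.0476, adjusted p = 0.184 over 14536 genes). It was not past 0.05 without line Ma_1181, Ma_1039 or Ma_1456 (exact permutation p of 0.0536 to 0.0714) or without any 1 of the ∆Ecad female lines (0.107 to 0.143, permutation). This order was common among genes, since 21.0% of the genes tested had all 3 ∆Ecad female values below the others. Part of the covered length in lines Ma_1007, Ma_1014, Ma_1039 and Ma_1456 came from peaks 25.6 to 30.4 kb from the start, at the 3′ end, where Ulk4, a kinase-family gene read from the opposite strand, also has transcript starts.

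The promoter peak of Ctnnb1 was narrower in ∆Ecad than in Ecad lines. It was 6388, 3524, 3362 and 3242 bp in the Ecad lines Ma_1007, Ma_1181, Ma_1014 and Ma_1039. In the ∆Ecad lines Ma_1062, Ma_1456, Ma_1057, Ma_1064 and Ma_1069 it was 3130, 3125, 1827, 2579 and 2857 bp. No ∆Ecad value reached the lowest Ecad value, although the gap was only between 3130 and 3242 bp. The difference in means was −1425 bp, with p = 0.00794 by the exact permutation test, the smallest that 126 splits allow, and an adjusted p of 0.185 over 4622 genes. Of those genes, 19.0% had a lower width by an exact p of 0.05 or less, and 7.2% had narrower peaks in all ∆Ecad lines than in all Ecad lines. Divided by the median peak width of its list, the Ctnnb1 peak overlapped between genotypes (1.94 to 2.96 against 2.84 to 5.53, exact permutation p = 0.0238, adjusted p = 0.289, where 13.2% of genes were lower), and without line Ma_1007 the difference in bp was −672 bp (exact permutation p = 0.0714). Peak strength overlapped between genotypes. The percentile of the peak, that is, the share of peaks in the same list with a −log10 q at or below its own, was 64.9 to 85.0 in Ecad lines and 64.2 to 79.2 in ∆Ecad lines (difference −1.15, exact permutation p = 0.825, adjusted p = 0.897).

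**Figure D1:**
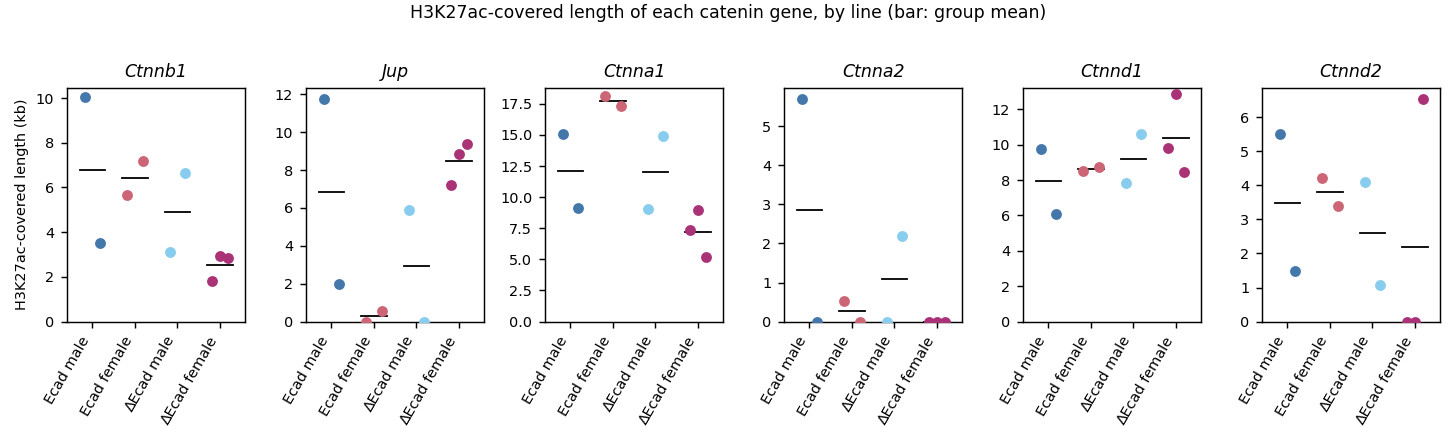
Covered length in kb (y axis, from 0, scaled for each gene) of the 6 genes with any peak, by group (x axis); points are lines and bars are group means. The 3 ∆Ecad female lines are lowest for Ctnnb1 and Ctnna1, and for Jup they sit at 7.19 to 9.40 kb, above both Ecad female lines.

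Jup encodes plakoglobin, which replaces β-catenin at adherens junctions and also sits in desmosomes. It lies at chr11:100368958-100397763 (−). Its H3K27ac differed widely between lines of the same group. The window was covered over 11.8 kb and 1.97 kb in Ecad males, 0 and 0.576 kb in Ecad females, 5.87 kb and 0 in ∆Ecad males, and 7.19, 8.87 and 9.40 kb in ∆Ecad females. Every ∆Ecad female line lay above both Ecad female lines and both ∆Ecad male lines, and the Ecad male line Ma_1007 was higher still. Against the other 6 lines the means were 8.49 ± 1.15 kb and 3.36 ± 4.67 kb (s.d., n = 3 and 6), and the difference of 5.12 kb did not pass the test (exact permutation p = 0.119, adjusted p = 0.292). Without line Ma_1007 the difference was 6.80 kb (exact permutation p = 0.0179), so that 1 line decided the call.

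All peaks over Jup lay within 12.4 kb downstream of the start, apart from 39 bp of line Ma_1007 upstream of it. In 7 lists a peak had its summit 6.87 to 7.07 kb downstream of the start, in intron 1, and in 6 of them that peak ended within 9.60 kb of the start. The peak in line Ma_1007 ran on to 11.4 kb, over exon 2. At this position the percentile of the peak was 98.7 in line Ma_1007, 58.4 in line Ma_1181, 3.81 in line Ma_1039 and 84.1 in line Ma_1062, and it was 88.6, 86.7 and 96.7 in the ∆Ecad female lines Ma_1057, Ma_1064 and Ma_1069. Lines Ma_1014 and Ma_1456 had no peak in the gene. A peak lay within 1 kb of the start in 5 lists (Ma_1007, Ma_1181, Ma_1062, Ma_1064 and Ma_1069), and it covered the start in line Ma_1007 alone. In the ∆Ecad female line Ma_1057 the nearest peak began 1.00 kb into the gene, just outside the distance for a call. The promoter call therefore did not separate the groups (called in 2 of 3 ∆Ecad female lines and in 3 of the other 6, p = 1 by Fisher's exact test and adjusted p = 1).

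The 300 bases around the shared Jup summit, as placed in line Ma_1007 (chr11:100390613-100390912, −, no annotated exon), are shown because they are the part of the gene most often called. They held 1 match to the SOX motif and none to the other 3 motifs.
Jup intron 1: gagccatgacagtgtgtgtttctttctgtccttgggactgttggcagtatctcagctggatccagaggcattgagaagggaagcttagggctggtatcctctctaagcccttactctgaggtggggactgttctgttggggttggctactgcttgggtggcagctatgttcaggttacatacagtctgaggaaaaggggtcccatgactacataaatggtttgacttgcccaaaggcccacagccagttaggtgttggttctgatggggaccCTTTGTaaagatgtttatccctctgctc

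**Figure D2:**
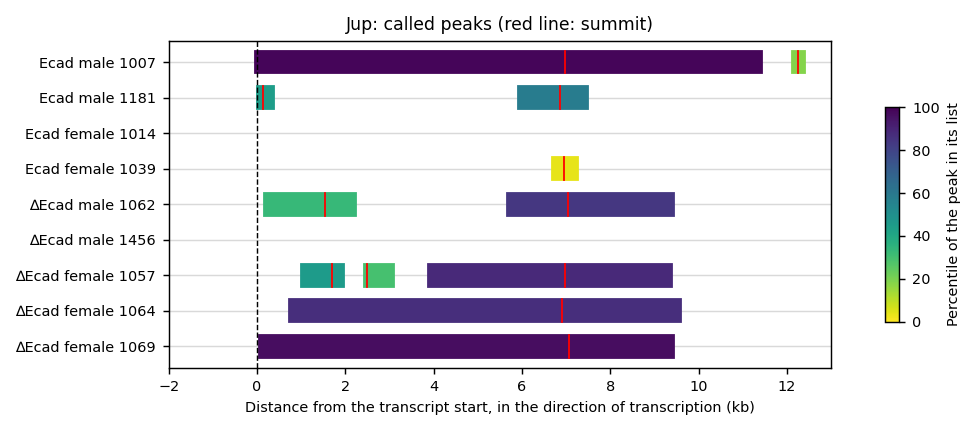
Called peaks over Jup in each of the 9 lines (rows), by distance in kb from the transcript start (x axis); colour gives the percentile of the peak in its list and red lines give summits. In 7 lines a summit lies 6.87 to 7.07 kb into the gene, and the ∆Ecad female lines Ma_1064 and Ma_1069 have single peaks of 8.87 and 9.40 kb.

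Ctnna1 encodes αE-catenin, the link between the cadherin complex and actin in most cells, and lies at chr18:35118859-35254779 (+). It had the most separate regions, 13 in all, of which 3 were called in every list. These were the start, and a pair of neighbouring elements in intron 7 that lay 66.9 to 70.2 kb and 70.8 to 73.9 kb into the gene. The covered length was 15.1 and 9.13 kb in Ecad males, 18.1 and 17.3 kb in Ecad females, 9.06 and 14.9 kb in ∆Ecad males, and 7.39, 8.94 and 5.22 kb in ∆Ecad females. The ∆Ecad females were again the lowest, although line Ma_1064 (8.94 kb) was close to lines Ma_1062 (9.06 kb) and Ma_1181 (9.13 kb). Their mean was 7.18 ± 1.87 kb (s.d., n = 3) against 13.9 ± 3.96 kb (s.d., n = 6), a difference of −6.76 kb (exact permutation p = 0.0357, adjusted p = 0.159). Without line Ma_1057 or Ma_1069 it was −6.86 or −5.77 kb (exact permutation p = 0.0714 for both). Between genotypes the difference was −5.81 kb (exact permutation p = 0.0476, adjusted p = 0.281), and it was not past 0.05 without any 1 of the 7 lines other than Ma_1181 and Ma_1456 (exact permutation p of 0.0571 to 0.143). A region at 93.3 to 97.1 kb, called in 8 lists, held internal starts of Ctnna1 and lay near the start of Lrrtm2, a gene for a synaptic adhesion protein nested in intron 7, whose own promoter was called in 7 lists.

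The promoter peak of Ctnna1 ranked lower in ∆Ecad lines. Taking the strongest peak within 1 kb of the start of a transcript in the GENCODE basic set, a measure added after the peaks had been seen, the percentile was 93.3 and 90.0 in Ecad males and 76.8 and 80.9 in Ecad females. It was 68.4 and 72.0 in ∆Ecad males, and 53.2, 39.5 and 12.8 in ∆Ecad females. The genotypes did not overlap, and within each genotype the females lay below the males. Fold enrichment at the summit, as deposited, was 19.1 to 38.1 in Ecad lines, 8.48 and 9.06 in ∆Ecad males, and 4.51, 3.81 and 2.99 in ∆Ecad females. The mean percentile was 49.2 in ∆Ecad and 85.2 in Ecad lines, a difference of −36.1 (exact permutation p = 0.0238, adjusted p = 0.223 over 4351 promoters called in every list). Without line Ma_1007 or Ma_1181 it was −33.4 or −34.5 (exact permutation p = 0.0536 for both). Against the other 6 lines, ∆Ecad females differed by −45.1 (exact permutation p = 0.0119, adjusted p = 0.0704), the smallest p that 84 splits allow.

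Lower ranks were shared by other promoters, but few differences were as large. Of the 4351 promoters, 18.3% were lower between genotypes and 31.2% for ∆Ecad females by an exact p of 0.05 or less. Among them, 9.81% of the 4351 were lower in all ∆Ecad lines than in all Ecad lines, and 18.8% were lower in all ∆Ecad females than in all other lines. The median difference between genotypes was −9.13, and 1.36% of the promoters had a difference as low as that of Ctnna1. It was −9.23 over the 115 other such promoters of chromosome 18 and −12.8 over the 21 within 2 Mb of Ctnna1. The intron 7 element at 66.9 to 70.2 kb had percentiles of 64.0 to 81.2 in Ecad lines, 79.6 and 82.4 in ∆Ecad males, and 84.5, 58.9 and 64.3 in ∆Ecad females, and it outranked the promoter in 7 of the 9 lines, all but the Ecad males. The one at 70.8 to 73.9 kb had percentiles of 8.96 to 61.6 in Ecad lines, 11.1 and 42.5 in ∆Ecad males, and 65.9, 47.1 and 39.4 in ∆Ecad females, with overlap of the groups.

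**Figure D3:**
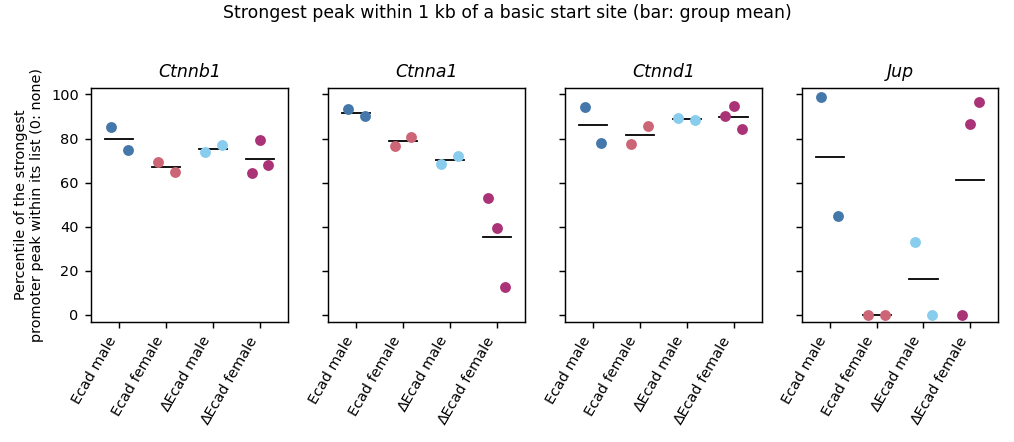
Percentile of the strongest peak within 1 kb of a basic transcript start (y axis, 0 to 100, with 0 where no peak was called) for Ctnnb1, Ctnna1, Ctnnd1 and Jup, by group (x axis); points are lines and bars are group means. For Ctnna1 the Ecad lines sit at 76.8 to 93.3 and the ∆Ecad lines at 12.8 to 72.0, whereas the groups overlap for Ctnnb1 and Ctnnd1.

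Ctnna2 encodes αN-catenin, the α-catenin of neurons, and spans 1098 kb at chr6:76881637-77979699 (−). The peak nearest to its start in any list was 548 kb away. Line Ma_1007 had 5 peaks (5.70 kb), line Ma_1456 had 2 (2.19 kb) and line Ma_1014 had 1 (0.525 kb), while the other 6 lists, ∆Ecad females included, had none. The peaks lay 548 to 905 kb into the gene, in introns 7 and 9, and the sole position called in more than 1 list was at 903 to 905 kb, in lines Ma_1007 and Ma_1014. Lrrtm1, nested in the gene on the opposite strand, had no promoter call in any list.

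Ctnnd1 encodes p120-catenin and lies at chr2:84600071-84650765 (−). It had strong peaks in every list. The covered length was 9.78 and 6.10 kb in Ecad males, 8.50 and 8.72 kb in Ecad females, 7.82 and 10.6 kb in ∆Ecad males, and 9.82, 12.9 and 8.44 kb in ∆Ecad females. The groups overlapped, and the ∆Ecad female mean exceeded that of the other lines by 1.80 kb (10.4 ± 2.27 against 8.58 ± 1.57 kb, s.d., exact permutation p = 0.238, adjusted p = 0.444). Promoter percentiles were 77.5 to 94.1 in Ecad and 84.2 to 95.0 in ∆Ecad lines (difference 5.50, exact permutation p = 0.198, adjusted p = 0.411). Leaving out line Ma_1007 raised it to 8.90 (exact permutation p = 0.0357). Each line was left out in turn, and the share of all promoters passing without line Ma_1007 was not computed.

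Nearly all of this length came from a pair of regions called in every list. The promoter region spanned 1.99 kb upstream to 1.35 kb downstream of the start, with summits 1.03 to 1.11 kb upstream of it. The other region, 8.85 to 16.9 kb into the gene in intron 1, was the broader, with main peaks of 4.34 to 8.09 kb. Its percentile was 90.7 and 84.4 in Ecad males, 98.4 and 95.2 in Ecad females, 76.2 and 97.9 in ∆Ecad males, and 97.1, 99.3 and 92.5 in ∆Ecad females. The summit took 1 of 2 positions, at 14.1 to 14.2 kb in the 5 female lines and line Ma_1456, and at 13.2 to 13.3 kb in the male lines Ma_1007, Ma_1181 and Ma_1062. A further transcript of Ctnnd1 starts in or within 1 kb of this region. The 300 bases around each summit position follow, from line Ma_1064 (chr2:84635206-84635505, −) and from line Ma_1007 (chr2:84636164-84636463, −), and neither overlapped an annotated exon.
Ctnnd1 intron 1, farther summit: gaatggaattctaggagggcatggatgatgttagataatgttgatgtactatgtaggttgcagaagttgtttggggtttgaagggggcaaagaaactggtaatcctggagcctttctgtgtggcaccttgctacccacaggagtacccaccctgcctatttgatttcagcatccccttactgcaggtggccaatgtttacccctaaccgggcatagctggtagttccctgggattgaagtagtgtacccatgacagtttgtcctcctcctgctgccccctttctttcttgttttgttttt
Ctnnd1 intron 1, nearer summit: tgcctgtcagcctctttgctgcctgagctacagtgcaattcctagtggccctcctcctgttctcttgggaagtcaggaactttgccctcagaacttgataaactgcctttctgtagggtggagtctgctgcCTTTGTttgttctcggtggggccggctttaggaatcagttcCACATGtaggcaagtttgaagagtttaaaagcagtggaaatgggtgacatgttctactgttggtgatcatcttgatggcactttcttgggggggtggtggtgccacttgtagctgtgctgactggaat

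The farther window held none of the 4 motifs, and the nearer window held 1 match to CATGTG and 1 to the SOX motif. The shares of all summit windows with these motifs were 18.4% and 25.4% in line Ma_1007 and 18.1% and 24.6% in line Ma_1064.

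**Figure D4:**
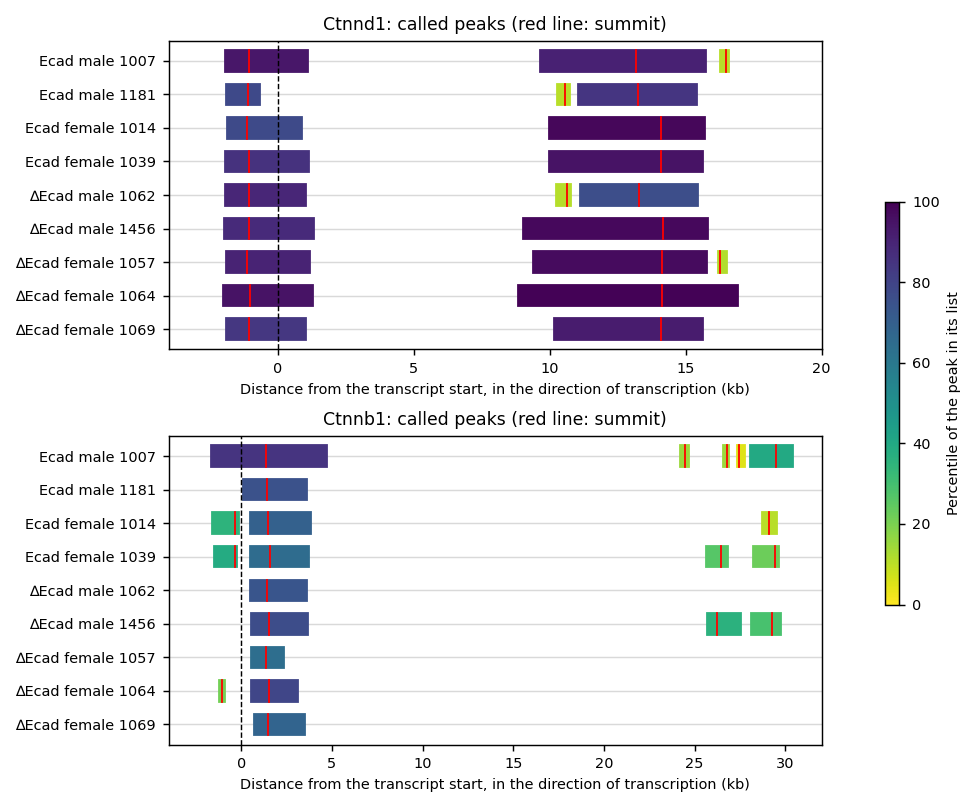
Called peaks over Ctnnd1 (top) and Ctnnb1 (bottom) in each of the 9 lines (rows), by distance in kb from the transcript start (x axis); colour gives the percentile of the peak in its list and red lines give summits. Ctnnd1 has a promoter and an intron 1 region in every line, and in 8 of the lines the Ctnnb1 peak begins 0.08 to 0.67 kb after the start.

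Ctnnd2 encodes δ-catenin, the neuronal relative of p120-catenin, and spans 857 kb at chr15:30172593-31029341 (+). Its promoter was called in no list. Its main element lay 111 to 115 kb into the gene, in intron 1, and was called in 7 lists, being absent from the ∆Ecad female lines Ma_1057 and Ma_1064, which had no peak in the gene. The percentile of this element was 54.2 and 17.3 in Ecad males, 93.3 and 84.6 in Ecad females, 89.5 and 52.7 in ∆Ecad males and 33.5 in the ∆Ecad female line Ma_1069. It was thus strongest in both Ecad female lines and line Ma_1062. Line Ma_1069 had 7 peaks over 6.54 kb, the longest cover of any line, and the strongest of them (percentile 85.2) lay 339 to 341 kb into the gene in intron 3, where lines Ma_1007 and Ma_1014 had weak peaks (percentiles 0.048 and 4.83). The covered length of the 3 ∆Ecad female lines, 0, 0 and 6.54 kb, enclosed the 1.07 to 5.49 kb of the other lines (difference −1.12 kb, exact permutation p = 0.512, adjusted p = 0.696). Without line Ma_1069 the difference was −3.30 kb (exact permutation p = 0.0357). Each line was left out in turn, and 2079 to 3336 of all genes then passed in this comparison. The 300 bases around the summit in line Ma_1014 (chr15:30285181-30285480, +, no annotated exon) are shown because this was the sole region of the gene called in most lines, and they held 1 TCF/LEF match, a motif found in 10.9% of the summit windows of that list.
Ctnnd2 intron 1: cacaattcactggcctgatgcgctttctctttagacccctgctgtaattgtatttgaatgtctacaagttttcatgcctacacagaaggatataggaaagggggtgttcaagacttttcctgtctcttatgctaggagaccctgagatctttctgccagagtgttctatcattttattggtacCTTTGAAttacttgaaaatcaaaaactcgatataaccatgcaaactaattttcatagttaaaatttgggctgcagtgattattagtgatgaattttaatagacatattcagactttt

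Ctnnbip1, the gene for the β-catenin inhibitor ICAT, lies at chr4:149518236-149566437 (+). It had no peak in its window in any of the 9 lists. The peak nearest to its start was 17.6 to 20.9 kb away in each line. It was therefore not among the 14536 genes tested.

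Of the 6 genes tested, 2 (Ctnnb1 and Ctnna1) had less covered length in ∆Ecad females than in the other lines and none had more, at an exact p of 0.05 or less. Over all genes tested, 24.4% were lower and 1.47% higher by the same rule. Between genotypes 1 gene, Ctnna1, was lower, where 16.7% of all genes were lower and 0.234% higher. Between the sexes none of the 6 passed, where 12.5% of all genes were lower and 0.282% higher in females. By strongest peak percentile in the window none passed in any of the 3 comparisons, in which 23.6%, 15.6% and 10.3% of all genes did. None of the 6 had an adjusted p of 0.05 or less in these comparisons. The median difference over the 6 genes was −1.26 kb for ∆Ecad females against the rest and −1.21 kb between genotypes, and over all genes it was −0.606 and −0.433 kb. With length scaled to the list total, it was −0.418 and −0.332 kb over the 6 genes and −0.293 and −0.141 kb over all genes. By strongest peak percentile, it was −9.48 and −3.16 over the 6 genes and −10.9 and −9.55 over all genes.

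When covered length was expressed relative to the total of each list, other genes passed. Ctnnd1 and Jup were then higher in ∆Ecad females than in every other line (differences of 5.004 and 7.99 kb at the mean list total, exact permutation p = 0.0119 for both, adjusted p = 0.149 for both). The same scaling left Ctnnb1 and Ctnna1 lower but not past 0.05 (−2.08 kb, exact permutation p = 0.0833, and −3.87 kb, exact permutation p = 0.107). Over all genes the scaling moved the calls from 24.4% lower and 1.47% higher to 13.2% lower and 4.93% higher, and 2.68% of genes were then higher in every ∆Ecad female line than in every other line. The scaled Ctnnd1 values were 6.28 to 8.21 kb in Ecad lines and 9.09 to 14.0 kb in ∆Ecad lines, without overlap between genotypes (difference 4.22 kb, exact permutation p = 0.0238, adjusted p = 0.465), an order shown by 0.86% of genes, where 2.09% passed as higher. For Jup the scaled values were 9.07, 9.67 and 13.7 kb in ∆Ecad females and at most 7.55 kb elsewhere.

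In these lines, the genotype difference in mean covered length of Ctnna1 and Jup was not alike in the sexes. With 3 and 2 female or 2 and 2 male lines, neither sex can reach 0.05 alone, so only values are given. For Ctnna1 the ∆Ecad mean minus the Ecad mean was −10.5 kb in females and −0.10 kb in males, and for Jup it was 8.20 kb in females and −3.93 kb in males. The difference between the sexes was −10.4 kb and 12.1 kb, and each gave p = 0.0167 when sex was permuted within genotype, the smallest that 60 exact regroupings allow (adjusted p = 0.341). Such regrouping takes the sexes as interchangeable within each genotype, so its p does not bear on the difference of the genotype effects alone. Of all genes tested, 10.1% passed 0.05 in this test, which was added after the peaks had been seen. For the other genes the test gave p of 0.567 to 1 by the same exact regroupings.

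The catenins act with many other proteins, and 47 genes in 6 lists were read in the same way. Of these, 19 (40.4%) were called in all 9 lists, 24 in some and 4 (8.51%) in none (Pkp1, Pkp3, Nectin4 and Sox17). Over all protein-coding genes, 21.1% were called in all 9 lists and 47.1% in none. The destruction complex and its ligase were the most often called, with 6 of 10 genes in all lists (Apc, Axin2, Gsk3a, Gsk3b, Csnk1a1 and Fbxw11). Btrc, a ligase subunit, was called in 4 lists and Apc2, a relative of Apc, in 7. Axin1, the scaffold of the complex, was called in both Ecad male lines alone, and Amer1, a membrane partner of Apc, in line Ma_1181 alone. Among nuclear cofactors 5 of 10 were called in all lists, among them Bcl9l, whereas its paralogue Bcl9 was called in 5 of 6 other lines and in none of the 3 ∆Ecad females (Fisher's exact p = 0.0476, adjusted p = 0.337). The PHD-finger cofactor genes Pygo1 and Pygo2 were called in 2 and 8 lists, and Cdc73 in 8. Crebbp, which encodes the acetyltransferase CBP, was called in 4 of 4 Ecad and 0 of 5 ∆Ecad lines (Fisher's exact p = 0.00794, adjusted p = 0.411), while its paralogue Ep300 was called in all 9. The covered length of Crebbp overlapped between genotypes, at 4.06 to 7.87 kb in Ecad and 0.911 to 7.07 kb in ∆Ecad lines. By Fisher's exact test, 9.46% of the 6985 promoters called in some lists passed 0.05 between genotypes, and 14.0% for ∆Ecad females against the rest.

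Junction proteins were called in all lists for 5 of 13 genes, among them Actn4, Tjp1, Ajuba and Lima1. Vcl and Actn1, which encode the actin-binding vinculin and α-actinin-1, were called in the same 6 lists. Of the nectins, which pair with the cadherin complex through afadin, Nectin1, Nectin2 and Nectin3 were called in 2, 4 and 3 lists. None of the other armadillo and α-catenin relatives was called in all lists. Arvcf, a p120-catenin relative, was called in 3 of 4 Ecad and 0 of 5 ∆Ecad lines, and Ctnna3 and Ctnnal1 each in 4 lists, none of them a ∆Ecad female. Pkp4 was called in 7 lists and Pkp2 in line Ma_1007 alone. Plekha7, which ties p120-catenin to microtubules, was called in 2 Ecad lines, and Afdn, which encodes afadin, in all lists but that of line Ma_1456. Of the p120-catenin partners, Rhoa was called in all lists and Zbtb33, which encodes the repressor Kaiso, in 8, all but line Ma_1069. Fer, a kinase that binds p120-catenin, was called in 6 of 6 other lines and 0 of 3 ∆Ecad females (Fisher's exact p = 0.0119, adjusted p = 0.155). Among the antagonists, Chd8 and Cby1 were called in all lists and Sox7 in line Ma_1007 alone.

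By covered length, 9 of the 45 genes of these lists that could be tested were lower in ∆Ecad females and 1 was higher, at an exact p of 0.05 or less, beside 24.4% lower and 1.47% higher over all genes. With length scaled to the list total, 5 of the 45 were lower and 2 higher, beside 13.2% and 4.93% of all genes. The 9 were Afdn, Nectin2, Apc2, Gsk3a, Bcl9l, Pygo2, Ep300, Smarca4 and Chd8. The largest difference was that of Bcl9l, 3.36 against 9.75 kb (exact permutation p = 0.0357, adjusted p = 0.159). The gene that was higher was Tjp1, the tight junction protein ZO-1 that binds α-catenin, with 6.43 against 3.42 kb (exact permutation p = 0.0357, adjusted p = 0.159). Between genotypes 10 of 45 were lower and none higher (16.7% of all genes were lower). After scaling, 5 were lower and 1 higher, beside 7.93% and 2.09% of all genes. Between the sexes 6 of 45 were lower in females and none higher (12.5% of all genes were lower). After scaling, 3 were lower and 2 higher, beside 7.13% and 1.11% of all genes.

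The genes whose covered length followed that of each catenin most closely were sought among all genes with a peak that lay more than 1 Mb away, by the mean absolute difference over the 9 lines between profiles each divided by its own mean. For Ctnnb1 they were Agrp (11.2% of the mean), Btbd1 (12.4%) and Mib2 (14.0%). For Ctnna1 they were Anks3 (7.17%), Atf1 (7.56%) and Hnrnpr (8.49%). Ctnnd1 was followed by Rchy1 (7.69%) and by Timm10b and Gm45799, which share 1 window and the same value (8.68%). The profile of Ctnnd2 had no match as close, the nearest being Trappc10 (20.3%), Mkrn1 (21.0%) and Tle4 (25.1%). For Jup they included Kremen1 (23.4%) and Ctsh (29.5%). Kremen1 was covered over 35.3 and 9.86 kb in Ecad males, 4.13 and 5.29 kb in Ecad females, 11.4 and 4.38 kb in ∆Ecad males, and 23.8, 20.8 and 28.9 kb in ∆Ecad females. Line Ma_1007 and the 3 ∆Ecad females were the highest for both genes, an order that the choice of Kremen1 by its profile favoured.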

How the data were processed

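H3K27ac ChIP–seq was analysed in 9 lines. Per the submitters' notes, the authors aligned reads to GRCm38 (mm10) with Bowtie2 2.4.5 and called peaks per line with MACS2 2.2.7.1. Caller settings, and which of the 4 input libraries (not analysed here) served as control, are not given in the sources used here. The deposited narrowPeak lists hold a score, a fold enrichment at the summit (a ratio), a −log10 p and a −log10 q, each as the authors' caller wrote it. In each deposited list the lowest −log10 q was just above 5. Lists hold no counts, so depth is unknown and no interval was computed.

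Peaks were joined to GENCODE M21 genes by at least 1 shared base, with Python 3.11.15, numpy 2.4.6, pandas 2.3.3 and scipy 1.17.1. Covered length is the union of peaks over the gene body plus 5 kb on each side. Strength was ranked within its list, a list without a peak counting as 0. Differences of means were tested by the exact two-sided permutation test over lines and promoter calls by Fisher's exact test, each for every gene and adjusted by the Benjamini-Hochberg method. "Passed" means an unadjusted exact p of 0.05 or less. A permutation p is the share of regroupings of these lines with a difference in means at least as large as that observed. It does not separate a difference at a gene from differences in list length. Covered length and the permutation test of means were checked on simulated data, which held no shift in list length. The Benjamini-Hochberg adjustment was checked on values worked by hand. Fisher's exact test and the regrouping of sex within genotype were not checked in this way.

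Sequences came from RefSeq promoter tables and the genome of GRCm38.p6. Named were the 7 genes, the pathway and marker genes, neighbouring genes with a start in a window, and the 3 genes nearest in profile to each gene with peaks in at least 5 lists. Some genes that this rule takes in are counted but not reported here by name. Genes and lists were chosen with earlier results of these data known. Alternatives were a stricter threshold, equally long lists, a minimum width of 500 bp, the gene body alone, scaling to the list total, leaving out peaks at other genes' starts, other promoter distances and each line left out.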

Additional observations from a re-analysis of the deposited data

Results flagged for a closer look

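Of 24 sets of 4 Ecad or 5 ∆Ecad lines examined for a line far from the others by Dixon's test, 7 held one. The cutoffs flag about 1 in 20 sets of normally distributed values. Several sets held values of 0, and covered length and percentile came from the same peaks, so that rate does not apply here. The Ecad male line Ma_1007, which had the longest list, stood apart in covered length over Jup (11.8 kb) and Ctnna2 (5.70 kb) and in the percentile of its strongest Ctnna2 peak (58.1). The ∆Ecad male line Ma_1456 stood apart in covered length over Ctnnb1 (6.65 kb) and Ctnna2 (2.19 kb) and in the percentile of Ctnna2 (52.7), and over Jup it alone among the ∆Ecad lines had no peak (percentile 0). For Ctnna2 the line stood apart because the other lines of its genotype were at or near 0.

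The effect of the genotype on covered length differed between the sexes by −10.4 kb for Ctnna1 and by 12.1 kb for Jup. Each had the smallest p that 60 exact regroupings of sex within genotype allow, p = 0.0167, with an adjusted p of 0.341. That test takes the sexes as interchangeable within each genotype. The length of the lists also moved with sex and genotype, and its part in these differences was not tested.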

How the results depend on the processing

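No paired analysis was possible because the labels give the lines no shared replicate numbers. A peak list holds only what passed the authors' threshold, and list length moved with the groups. Of the 1028 values recomputed, 45 changed direction, all of them differences that passed no test.

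The number of the 6 genes with a difference in covered length between ∆Ecad females and the other lines was 2, and it was 0 with the stricter threshold, 1 with equally long lists, 1 with peaks of at least 500 bp, and 0 to 3 with 1 line left out. Between genotypes it was 1 (Ctnna1). With the stricter threshold it was also 1, but a different gene, Ctnnb1 (−1.43 kb, exact permutation p = 0.00794, the smallest possible), with Ctnna1 at −5.63 kb (exact permutation p = 0.127). At that threshold only the main Ctnnb1 peak of each line was left. This is therefore the promoter width result given above and not a separate one, and its dependence on line Ma_1007 is given there. The share of all genes passing at that threshold was not computed. The count became 0 with equally long lists or peaks of at least 500 bp, 2 with the gene body alone or without peaks at another gene's start, and 0 to 2 with 1 line left out. With 1 line left out, strongest peak percentile gave 0 to 1 for ∆Ecad females and for sex, and promoter peak width 0 to 1 for genotype and 0 to 2 for ∆Ecad females. In ∆Ecad females and the other lines, mean widths were 2421 and 3795 bp for Ctnnb1 and 1052 and 2002 bp for Ctnna1, without overlap. For Ctnnd1 they were 6663 and 5501 bp, with overlap. Of the 4622 genes, 36.8% were narrower in ∆Ecad females by an exact p of 0.05 or less, and 32.5% were narrower without overlap. Percentile at basic starts, added after the peaks had been seen, gave 1 for ∆Ecad females and 1 for genotype, and 0 to 1 between genotypes with 1 line left out. Promoter calls that needed 0.5 of the window covered also gave 1 each, which was Ctnnb1 (−83.3 points for ∆Ecad females and −80.0 points for genotype, Fisher's exact p = 0.0476 for both). That rule takes any transcript start, those near the 3′ end of Ctnnb1 included. The shares of all genes passing under it were not computed. Under the main rule, 14.0% and 9.46% of the promoters called in some lists passed. Over all genes, 1 line left out gave 2079 to 3336 genes for ∆Ecad females (3762 with all lines), 954 to 2124 for genotype (2463) and 803 to 1728 for sex (1851), and scaling to the list total gave 1457 for genotype and 1197 for sex. The causes were not tested.

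The following changed direction without passing a test. Female minus male covered length was 1.28, 1.34 and 1.23 kb for Ctnna1 with the stricter threshold, equally long lists and scaling, and for Ctnnd2 it was 0.249, 1.21 and 0.641 kb, and 0.046 kb with peaks of at least 500 bp. Scaled Ctnnd2 length in ∆Ecad females against the rest differed by 0.182 kb. Female minus male percentile was 3.52 for Ctnnd2 with the stricter threshold or equally long lists, and −0.85 for Ctnnd1 at basic starts. For Jup, the promoter call differed by 15.0 points between the sexes with the stricter threshold. It differed by −16.7 points for ∆Ecad females within 0.5 kb or with 0.5 of the window covered, and by −10.0 and −25.0 points for genotype. With 1 line left out, female minus male length ranged from −2.32 to 0.906 kb for Ctnna1, −1.13 to 0.613 kb for Ctnnd2 and −1.32 to 2.59 kb for Jup, and the percentile difference from −12.8 to 12.3 for Ctnnd2 and −25.2 to 8.65 for Jup. Between genotypes the ranges were −1.64 to 0.262 kb and −15.7 to 8.94 in percentile for Ctnna2, −4.03 to 2.66 in percentile for Ctnnb1 (also at basic starts), −0.728 to 3.94 for Ctnnd1, and −6.67 to 26.7 points for the Jup promoter.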
